A study of Mus musculus with 18 samples.

Results

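The oxidative phosphorylation (OXPHOS) genes described here encode the subunits of the 5 complexes of the mitochondrial respiratory chain and ATP synthase, with cytochrome c. Members were chosen by name: protein-coding genes whose symbol begins with Nduf, Sdha to Sdhd, Uqcr, Cox4 to Cox8 or Atp5, together with Cycs and Cyc1, plus the 13 proteins that mitochondrial DNA encodes. The rule found 108 of the 35275 gene identifiers in the table, 95 in the nucleus and 13 in mitochondrial DNA. Of these, 102 passed a filter of at least 1 FPKM (fragments scaled by gene length and library depth) in at least 3 libraries and were tested, 90 of them nuclear and 12 mitochondrial. The 6 members below the filter were mt-Atp8, Ndufb2, Cox4i2, Cox7b2, Cox8c and Ndufa4l2. A prefix also takes in genes that are not subunits, such as 8 complex I assembly factors, which were kept as a class of their own. All other members were counted with a complex or as cytochrome c. These include Cox7a2l, a supercomplex factor, with complex IV and Atp5s with complex V.

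Electrons from NADH enter the chain at complex I and those from succinate at complex II, and both pass through complex III and cytochrome c to oxygen at complex IV. The proton gradient this builds drives ATP synthesis by complex V. Complex II is encoded wholly in the nucleus, whereas complexes I, III, IV and V mix subunits made in the cytosol with subunits made from mitochondrial DNA, so both genomes must be expressed to build them. Regulatory T cells (Treg), the CD4 cells that express Foxp3 and restrain other immune cells, are known to rely on respiration more than other activated CD4 cells do.

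RNA was measured in Treg of male mice aged 6 to 8 weeks, enriched on a CD4 column and then sorted for the yellow fluorescent protein of the Foxp3-YFP-cre allele. All 6 groups carried that allele, so cre was restricted to Foxp3-expressing cells in the controls too. Wild type here means Foxp3-YFP-cre without a floxed gene, and each of the other 5 groups had in addition 1 floxed gene, Mef2c, Mef2d, Dyrk1, HDAC1 or HDAC2. Each group had 3 libraries, which the series describes as independent biological replicates, and 18 libraries were compared in all. One protocol sentence names Rcor1 as the deleted gene, while every other label names the 5 genes above, and those labels were followed. Whether Dyrk1 means Dyrk1a or Dyrk1b, and which exons were floxed, is not given in the sources used here.

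The smallest steps of the deposited values gave depths of between 15918037 and 24092535 reads per library. Hdac1 was at 27.8 to 36.5 FPKM in the HDAC1-labelled libraries against 116.5 to 122.4 in wild type. The other targeted genes were not below wild type by gene-wide FPKM, with Hdac2 at 27.1 to 28.9 in the HDAC2-labelled libraries against 27.7 to 28.7 and Mef2d at 52.8 to 53.9 in the Mef2d-labelled libraries against 37.5 to 46.6. Dyrk1a, Dyrk1b and Mef2c were likewise not below wild type in the libraries labelled for them. A sum over a whole gene may miss the loss of a few exons, so groups other than HDAC1 are named by their labels and the deletion itself was not checked. The defining markers Foxp3, Cd4 and Cd3e were at 82.5 or more FPKM in all 18 libraries. The 10-gene sum of B cell markers ran from 22.4 to 45.5 FPKM in wild type and up to 392.6 in the Dyrk1 group, where 1 library held the highest value. Over all 18 libraries the erythroid sum ran from 6.62 to 390.1 FPKM and the plasma cell sum from 262.8 to 10640.

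Several sequences bear on the results. The first pair is Cox7a2l, a supercomplex factor of complexes III and IV whose coding stretch is shown beside that of Gm6969, an annotated processed pseudogene on another chromosome. Both were read from the GENCODE transcripts of mm10. The stretch covers coding bases 181 to 246 of Cox7a2l (chr17:83501918-83517330, minus strand), counted from 1 at the A of its start codon, and bases 181 to 252 of Gm6969 (chr12:24638669-24639010, minus strand). Capitals mark the bases that differ.

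Cox7a2l: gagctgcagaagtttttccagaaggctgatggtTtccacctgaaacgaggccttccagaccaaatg
Gm6969: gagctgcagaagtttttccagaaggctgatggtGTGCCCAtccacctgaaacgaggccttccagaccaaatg

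Along the 342 aligned columns 334 were identical. The pair differed by T214A and C303T (the base of Cox7a2l, its coding position, then the base of Gm6969) and by 6 bases, in frame, that only Gm6969 holds.

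The next pairs are mitochondrial. The start of mt-Co3 (chrM:8607-8681, plus strand), a core subunit of complex IV, reads the same as Gm28437, an annotated copy of 783 bases on the minus strand of chromosome 1 (chr1:24613189-24613971). The start of mt-Nd3 (chrM:9459-9533), a complex I subunit, differs from its copy Gm28438 by T3C, counted from 1 at the first base of the coding sequence. Capitals mark that base.

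mt-Co3: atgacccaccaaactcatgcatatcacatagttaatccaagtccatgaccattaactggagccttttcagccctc
Gm28437: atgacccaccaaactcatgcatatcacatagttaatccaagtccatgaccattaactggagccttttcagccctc
mt-Nd3: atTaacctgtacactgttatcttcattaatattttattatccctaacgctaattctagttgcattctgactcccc
Gm28438: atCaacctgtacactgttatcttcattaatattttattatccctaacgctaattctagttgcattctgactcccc

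The last set comes from promoters. NRF1 and the ETS factor GABP are known activators of nuclear OXPHOS genes, and 30-base stretches of 3 members that fell in HDAC2 are given with the motif in capitals, on the gene's strand, from RefSeq (GRCm38.p6).

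Sdhd: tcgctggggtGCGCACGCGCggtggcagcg
Sdhd: accgtctcctgcCTTCCGGttcacgcttca
Ndufs6: ccgccgactgctgtGCGCCTGCGCcggcac
Uqcr11: tttctctcctccCCGGAAGtagatgtcaat

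The Sdhd stretches are chr9:50603909-50603938 (NRF1, 79 bases before the RefSeq start) and chr9:50603878-50603907 (ETS, 46 bases before it). The Ndufs6 stretch is chr13:73328483-73328512 (NRF1, 16 bases before its RefSeq start). The Uqcr11 stretch is chr10:80406870-80406899 (ETS, 66 bases before its RefSeq start). All are on the minus strand. The genes themselves are annotated in GENCODE at chr9:50596357-50603812 (Sdhd) and chr13:73319838-73328542 (Ndufs6). The Ndufs6 stretch lies inside that annotated gene, because the GENCODE and RefSeq starts differ.

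In wild-type Treg the most abundant nuclear member was Atp5b, the catalytic beta subunit of ATP synthase, at 497 ± 54.7 FPKM (SD, n = 3). FPKM is scaled by length, but annotated lengths gave whole reads for only 9 of the 95 nuclear members. Some members also have near-identical annotated copies. Levels of different genes can therefore be set side by side only roughly. Summed over members, complex V gave 2645 ± 198 FPKM, complex IV 2224 ± 177, the accessory subunits of complex I 1616 ± 95.9 and complex III 916 ± 73.7. The complex I core gave 375 ± 23.7 and complex II 262 ± 20.6. Wild-type Treg used the widely expressed isoforms of the paired subunits. Cox4i1 was at 219 FPKM against 0.202 for Cox4i2, and Cox6a1 at 358 against 0.289 for Cox6a2, the form known from heart and skeletal muscle. Cox6b1 was at 241 against 2.62 for the testis form Cox6b2, and Ndufa4, counted here with complex IV, at 177 against 0.0187 for Ndufa4l2. Cox8a was at 255 against 2.85 for Cox8b, with Cox8c listed at 0. Of the Cox7a family, Cox7a2l was at 239, Cox7a2 at 84.2 and the muscle form Cox7a1 at 3.54 FPKM. Cox7b was at 97.3, with Cox7b2 listed at 0. Among the 3 genes for the c subunit of ATP synthase, Atp5g2 (221) and Atp5g3 (211) were well above Atp5g1 (19.96).

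The 95 nuclear members together took 1.68% ± 0.0986 of all FPKM in wild type (SD, n = 3), and the 13 mitochondrial genes took 3.30% ± 0.366. The nuclear share was lower in the HDAC2 group at 1.37% ± 0.0953, where the 3 libraries lay between 1.26% and 1.42% against 1.61% to 1.79% in wild type. It was 1.51% ± 0.108 in the Mef2c group, 1.51% ± 0.0400 in the Mef2d group, 1.53% ± 0.0794 in the HDAC1 group and 1.60% ± 0.171 in the Dyrk1 group. The HDAC2 and Mef2d libraries did not overlap wild type in the nuclear share, while the Dyrk1 libraries (1.40% to 1.71%) did. The mitochondrial share was highest in the Mef2c group at 4.005% ± 0.401, with libraries between 3.64% and 4.44% against 3.06% to 3.72% in wild type, so these groups overlapped. The shares are given as descriptions, with no test. Of the 13 mitochondrial genes, 6 had low and uncertain levels, described below. The mitochondrial share is therefore mainly a sum over the other 7.

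**Figure D1:**
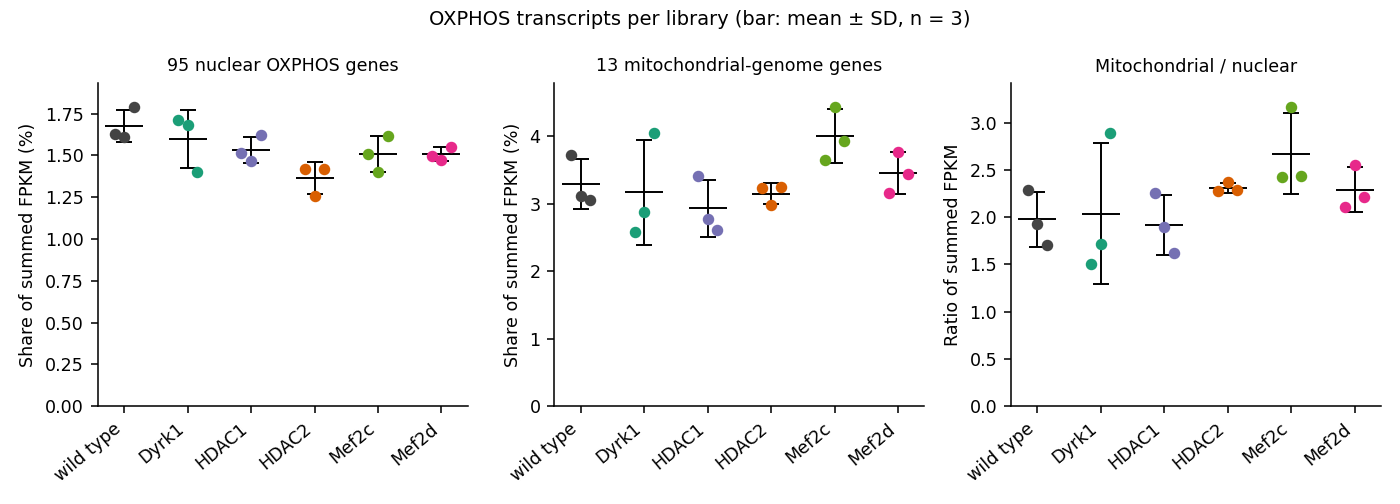
Share of all FPKM held by the nuclear and the mitochondrial OXPHOS genes, and the ratio of mitochondrial to nuclear, per library in the 6 groups (points, libraries; bars, mean ± SD, n = 3). The HDAC2 libraries lie below every wild-type library in the nuclear share, and the Mef2c libraries have the highest mean mitochondrial share (4.005%). Mitochondrial values come mainly from 7 of the 13 genes.

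With the same limit on the mitochondrial genes, the ratio of mitochondrial to nuclear OXPHOS FPKM was 1.98 ± 0.292 in wild type. It was 2.67 ± 0.426 in the Mef2c group, where the 3 libraries (2.42 to 3.16) lay above the 3 of wild type (1.71 to 2.29), and 2.31 ± 0.0538 in the HDAC2 group (2.28 to 2.37), which touched that range. Dyrk1 replicate 3 stood apart from its group, with a nuclear share of 1.40%, a mitochondrial share of 4.05% and a ratio of 2.89. In bulk RNA, fewer cells of a type and less RNA per cell cannot be told apart, and that holds for every level given here.

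Nuclear members leaned below wild type in each of the 5 comparisons, which share their wild-type libraries and so are not independent. Of the 90 tested, 76 had their highest mean in wild type, against 18.04% of all 12223 genes tested, and 67 had their lowest mean in the HDAC2 group, against 16.58% of all genes. Differences below are of log2(FPKM + 1), tested with limma and adjusted over all 12223 genes by the Benjamini-Hochberg method, and a gene is said to change where the adjusted p was under 0.05. The median difference of the 90 from wild type was -0.32 in the HDAC2 group, -0.21 in Mef2d, -0.20 in Mef2c, -0.18 in HDAC1 and -0.16 in Dyrk1. The median over all genes tested lay between 0.02 and 0.05 in these comparisons.

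**Figure D2:**
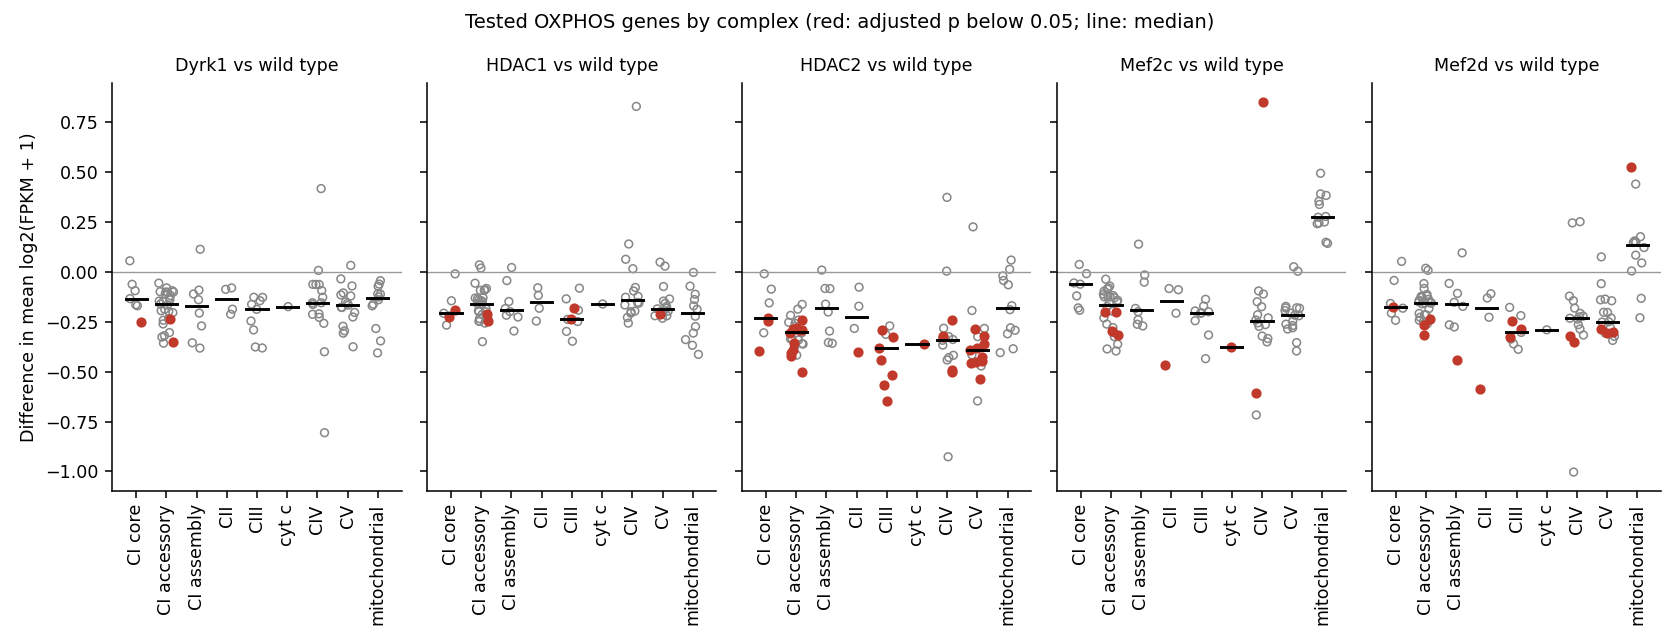
Difference from wild type (log2 of FPKM + 1) of each tested OXPHOS gene by class, for the 5 deletion groups (each point a gene, filled red where the adjusted p was under 0.05, lines at medians). Complex III and complex V have the lowest medians in the HDAC2 group (-0.38 and -0.39), and the mitochondrial genes lie above 0 in the Mef2c group.

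In the HDAC2-labelled libraries 38 of the 90 nuclear members fell and none rose (limma, adjusted p), against 9.41% of all genes called lower and 16.1% called higher. The 3 HDAC2 libraries lay below all 3 wild-type libraries for 72 of the 90, against 18% of all genes. By class, 7 of 9 complex III members fell, 10 of 17 of complex V, 11 of 28 accessory subunits and 3 of 7 core subunits of complex I, 5 of 16 of complex IV, 1 of 4 of complex II, and cytochrome c. None of the 8 complex I assembly factors passed, 4 having an unadjusted p under 0.05, and the one highest in wild type, Ndufaf8, was at 27.8 FPKM in wild type and 22.1 in HDAC2. Plasma cell, natural killer (NK) cell and cell-cycle genes moved with these falls. The 7-gene plasma cell sum was 3448 to 10640 FPKM in the HDAC2 libraries against 535.8 to 1635 in wild type, and 32 of 34 cell-cycle genes fell. Of 11 CD8 T and NK cell markers 3 rose, Klrb1c (4.17 to 11.8 FPKM, adjusted p = 0.0072), Ncr1 (2.95 to 8.24, adjusted p = 0.0327) and Prf1 (4.40 to 9.19, adjusted p = 0.0088), and the sum of the list was 99.7 to 154.3 against 72.2 to 108.5. The part of these in the result was not tested. Leaving out wild-type replicate 3 left 12 nuclear members that fell. Leaving out HDAC2 replicate 2 or replicate 1 left 18 or 23. Same-numbered libraries of HDAC2 and wild type deviated together. With the replicate number as a block over all 18 libraries 32 fell. That block was shared by all 6 groups and is not a pairing of these 2 groups alone.

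Complex I carries electrons from NADH through its flavin and iron-sulfur subunits. Ndufs6, an accessory subunit that helps in building the electron-input module, was at 84.6, 76.8 and 84.5 FPKM in wild type and at 58.5, 52.3 and 62.0 in HDAC2. All HDAC2 libraries were below all wild-type libraries, and the fall was 0.50 on the log2 scale (SE 0.095, adjusted p = 0.0033). The core iron-sulfur subunit Ndufv2 was at 46.2, 46.2 and 52.4 in wild type and 38.2, 32.9 and 38.1 in HDAC2, again without overlap, a log2 difference of -0.40 (SE 0.085, adjusted p = 0.0053). The core subunit Ndufs3 moved less, from a mean of 62.9 to 53.0 FPKM (log2 difference -0.24, adjusted p = 0.0328). Among accessory subunits, Ndufc2 went from 60.7 to 45.1 (-0.42, adjusted p = 0.0210), Ndufa8 from 80.9 to 60.5 (-0.41, adjusted p = 0.0105) and Ndufb7 from 21.0 to 15.7 (-0.39, adjusted p = 0.0212). In complex II, Sdhd, a membrane anchor subunit, went from 58.5 to 43.9 FPKM (-0.40, adjusted p = 0.0095).

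**Figure D3:**
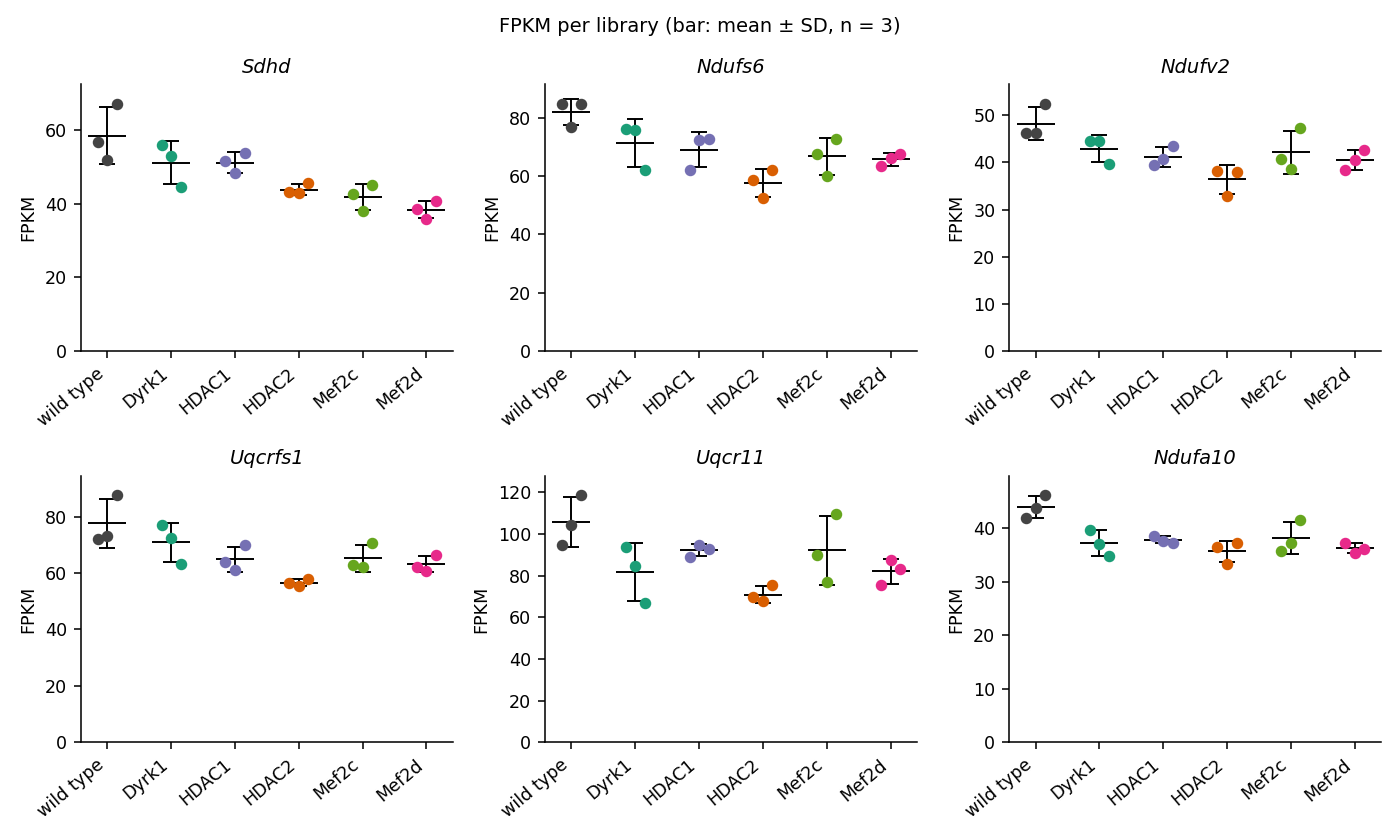
FPKM per library of Sdhd, Ndufs6, Ndufv2, Uqcrfs1, Uqcr11 and Ndufa10 in the 6 groups (points, libraries; bars, mean ± SD, n = 3). Sdhd is lowest in Mef2d (mean 38.4), Ndufs6 is lowest in HDAC2 (mean 57.6), and wild type has the highest mean in every panel.

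Complex III passes electrons from ubiquinol to cytochrome c. Uqcrfs1, its Rieske iron-sulfur protein, was at 72.0, 73.3 and 87.5 FPKM in wild type and at 56.6, 55.2 and 57.9 in HDAC2. The groups did not overlap, and the log2 difference was -0.44 (SE 0.086, adjusted p = 0.0037). The small subunit Uqcr11, whose promoter stretch with an ETS motif is given above, was at 94.7, 104.4 and 118.5 in wild type and 69.6, 67.7 and 75.4 in HDAC2. It fell by 0.57 on the log2 scale (SE 0.130, adjusted p = 0.0072), without overlap. Uqcr10 had the largest difference of the complex at -0.65 but a wide error (SE 0.223, adjusted p = 0.0446), its HDAC2 libraries lying at 95.1, 68.5 and 104.3 against 129, 127.2 and 161.9. Uqcrq went from 54.6 to 37.9 FPKM (-0.52, adjusted p = 0.0150). Cycs, the cytochrome c that carries electrons on to complex IV, was at 21.2, 22.7 and 25.3 in wild type and at 18.3, 16.7 and 18.1 in HDAC2, a log2 difference of -0.36 (adjusted p = 0.0382). With the replicate block neither Uqcr10 (adjusted p = 0.0553) nor Cycs (0.0503) passed.

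In complex IV, the terminal oxidase, Cox7a2 went from 84.2 to 59.1 FPKM in the HDAC2 group (-0.50, adjusted p = 0.0399) and Cox6b1 from 241 to 173 (-0.49, adjusted p = 0.0397). Cox5b (250 to 199) and Cox4i1 (219 to 175) each fell by 0.32, with adjusted p-values of 0.0464 and 0.0309. With the replicate block Cox7a2 (adjusted p = 0.0506), Cox6b1 (0.0501) and Cox5b (0.0571) did not pass. In ATP synthase, Atp5e, the epsilon subunit of the catalytic head, went from 102 to 70.3 FPKM (-0.54, adjusted p = 0.0206). Atp5o, the stalk subunit known as OSCP, went from 80.6 to 58.6 (-0.46, adjusted p = 0.0092). Atp5j2 and the c subunit gene Atp5g3 each fell by 0.45 (adjusted p = 0.0490 and 0.0203), and Atp5j2 did not pass with the replicate block (adjusted p = 0.0644). Of Atp5o, 47.9% of the exon bases overlap another annotated gene, and whether reads were counted by strand is not given in the sources used here.

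In the Mef2d-labelled libraries 14 of the 90 nuclear members fell and none rose, against 7.95% of all genes called lower and 13.9% called higher. Cox7a2l was among the 14, and it did not pass with the reads of Gm6969 added, as described below. The Mef2d libraries lay below all wild-type libraries for 56 of the 90, against 16.3% of all genes. Sdhd was the largest fall. It was at 56.7, 51.8 and 67.1 FPKM in wild type and 38.5, 36.0 and 40.6 in Mef2d, a log2 difference of -0.59 (SE 0.097, adjusted p = 0.0012) with no overlap. In complex III the core proteins Uqcrc1 (108.9 to 86.3 FPKM; -0.33, adjusted p = 0.0065) and Uqcrc2 (85.5 to 71.8; -0.25, adjusted p = 0.0047) fell with Uqcrfs1 (77.6 to 63.2; -0.29, adjusted p = 0.0286). In ATP synthase, Atp5b was at 500.3, 440.0 and 549.2 in wild type and 385.0, 404.7 and 407.7 in Mef2d (-0.31, adjusted p = 0.0135), without overlap. Atp5d, the delta subunit, and Atp5a1, the alpha subunit, fell by 0.30 and 0.29 (adjusted p = 0.0341 and 0.0077).

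Members of complexes I and IV also fell in Mef2d. Ndufs6 (82.0 to 65.7 FPKM; -0.31, adjusted p = 0.0297), Ndufa10 (43.9 to 36.3; -0.27, adjusted p = 0.0103) and Ndufa9 (56.5 to 47.8; -0.23, adjusted p = 0.0152) were among those that fell. Ndufaf2, an assembly factor, went from 16.4 to 11.9 FPKM (-0.44, adjusted p = 0.0280), and 65.65% of its exon bases are overlapped by the opposite-strand gene B230220B15Rik. Cox6a1 went from 358 to 280 (-0.35, adjusted p = 0.0440). Cycs did not pass, at 23.0 FPKM in wild type and 18.7 in Mef2d. The count of 14 was 5 without wild-type replicate 3, 7 without Mef2d replicate 1 or 2, and 7 when replicate 1 of the Dyrk1, Mef2c and Mef2d groups, the libraries with most B cell marker RNA, was left out. The B cell sum was 46.0 to 174.7 FPKM in the Mef2d libraries, and 21 of 34 cell-cycle genes fell. The erythroid sum was 13.3 to 55.8 FPKM against 25.9 to 390.1 in wild type, with 1 of 6 tested genes, Hbb-bt, falling from 16.4 to 0.885 (adjusted p = 0.0233). The CD8 T and NK cell sum was 50.9 to 96.4, with 1 of 11 genes, Klrb1c, falling from 4.17 to 0.744 (adjusted p = 0.0020). The part of these in the result was not tested.

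In the Mef2c-labelled libraries 7 nuclear members fell and 1 rose, against 6.06% of all genes called lower and 12.9% called higher, so the share of the 90 that fell was close to that of all genes. Cox7a2l was among the 7, and it did not pass with the reads of Gm6969 added, as described below. Sdhd was at 42.5, 38.1 and 45.1 FPKM, below all wild-type libraries (log2 difference -0.47, SE 0.097, adjusted p = 0.0046). Ndufa13, an accessory subunit also known as GRIM-19, went from 79.9 to 64.4 (-0.32, adjusted p = 0.0135), Ndufs6 from 82.0 to 66.7 (-0.30, adjusted p = 0.0417), and Ndufa9 and Ndufa10 each fell by 0.20 (adjusted p = 0.0318 and 0.0423). Cycs was at 18.03, 15.53 and 19.10, also without overlap (-0.38, adjusted p = 0.0403). The member that rose was Cox6a2, at 1.47, 1.33 and 1.15 FPKM against 0.221, 0.153 and 0.492 in wild type (log2 difference 0.85, SE 0.276, adjusted p = 0.0437). It stayed near the filter, and at such levels a few reads set the value. The Cox6a2 call was lost in 9 of 17 alternatives. No member of the complex I core, complex III or complex V passed, with Uqcrh, the most abundant of complex III, at 196 and 171 FPKM and Atp5b at 497 and 432 in wild type and Mef2c. The B cell sum was 57.2 to 122.5 FPKM in the Mef2c libraries, above all of wild type, and 16 of 34 cell-cycle genes fell. The erythroid sum was 15.3 to 52.6 FPKM, with Hbb-bt falling from 16.4 to 0.213 (adjusted p = 0.0126). The CD8 T and NK cell sum was 57.4 to 86.5, with Klrb1c falling from 4.17 to 0.801 (adjusted p = 0.0020). The part of these was not tested. The count of 8 was 2 when those same B cell-rich libraries were left out, 2 without wild-type replicate 3 or Mef2c replicate 1 or 2, and 5 without wild-type replicate 1.

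In the HDAC1-labelled libraries 7 of the 90 fell and none rose, against 2.32% of all genes called lower and 10.2% called higher. They included the complex I core subunit Ndufv1 (51.9 to 45.2 FPKM; -0.19, adjusted p = 0.0402), Ndufa9 (-0.25, adjusted p = 0.0186), Ndufa10 (-0.21, adjusted p = 0.0459), Uqcrc1 (-0.24, adjusted p = 0.0448), Uqcrc2 (-0.18, adjusted p = 0.0350) and Atp5a1 (276 to 238; -0.21, adjusted p = 0.0466). Uqcrc2 was at 76.0, 73.4 and 76.6 in HDAC1 against 85.7, 80.7 and 90.1 in wild type, with no overlap. The most abundant members of classes without a call were Sdha (102 to 96.3) and Cox6a1 (358 to 305). The count of 7 was 0 without wild-type replicate 3 or HDAC1 replicate 1, 1 without HDAC1 replicate 2, 2 without HDAC1 replicate 3 and 3 without wild-type replicate 1. The plasma cell sum was 2033 to 6124 FPKM in these libraries, and its part was not tested.

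In the Dyrk1-labelled libraries 3 of the 90 fell and none rose, which is below the 6.19% of all genes called lower, with 11.1% called higher. The 3 were all in complex I: Ndufa6 (127 to 99.1 FPKM; -0.35, adjusted p = 0.0385), Ndufs3 (62.9 to 53.0; -0.25, adjusted p = 0.0393) and Ndufa10 (43.9 to 37.1; -0.24, adjusted p = 0.0226). Among the others, Atp5b was at 497 and 457 and Cox6a1 at 358 and 312 FPKM in wild type and Dyrk1. In this group 10 of 34 cell-cycle genes rose. The erythroid sum was 6.62 to 41.8 FPKM against 25.9 to 390.1 in wild type, with Hba-a1 falling from 81.8 to 7.80 (adjusted p = 0.0380), and the part of these was not tested. Without Dyrk1 replicate 1, which held the most B cell marker RNA, 11 members passed, and none passed without Dyrk1 replicate 3 or wild-type replicate 3.

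Ndufa10, an accessory subunit of complex I, was the only member called lower in all 5 comparisons, which share their wild-type libraries. It was at 41.95, 43.70 and 46.06 FPKM in wild type, 39.6, 37.1 and 34.7 in Dyrk1, 38.6, 37.6 and 37.2 in HDAC1 and 36.4, 33.4 and 37.2 in HDAC2. In Mef2c it was at 35.7, 37.3 and 41.4, and in Mef2d at 37.3, 35.4 and 36.2. No library of a deletion group reached the lowest wild-type library. The Ndufa10 call was followed through 18 alternatives in each comparison except that with HDAC2. It was lost in 12 in HDAC1, 11 in Mef2c, 7 in Dyrk1 and 1 in Mef2d. Those in Dyrk1, HDAC1 and Mef2c included both scalings to equal totals, 2 groups alone and leaving out wild-type replicate 2 or 3, and the Mef2d call was lost without wild-type replicate 3. Ndufa9 was called in 4 comparisons. In all, 41 members were called lower at least once, 25 of them in a single comparison. Single comparisons called 2.32% to 9.41% of all genes lower. How many of all genes were called at least once, or in all 5, was not counted. The member counts here are therefore descriptions without a background.

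Tests between deletion groups found little. Between HDAC2 and HDAC1, limma called 0 of 90 nuclear members, with 12 at an unadjusted p under 0.05, against 1.5% of all genes called in either direction. The median difference was -0.15, and 83 of 90 lay below 0. Between Mef2d and Mef2c it called 0 of 90, with 5 at an unadjusted p under 0.05, against 3.06% of all genes, and the median was -0.02. The larger count against wild type in HDAC2 than in HDAC1 had no counterpart in calls between those groups. Over all 6 groups at once, limma's F test called 16 of 90 nuclear members, against 38.6% of all genes. The lowest adjusted p-values among them were those of Cox7a2l (4.9e-04), Sdhd (0.0023) and Atp5a1 (0.0032). With the reads of a near-identical copy added, as described next, that of Cox7a2l was 0.0250 and no longer the lowest.

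Cox7a2l, the supercomplex factor whose sequence opens the sequences above, had the lowest adjusted p of any nuclear member in a comparison with wild type. It was at 239.3, 234.9 and 242.4 FPKM in wild type and at 156.6, 153.2 and 159.8 in Mef2c, a log2 difference of -0.61 (SE 0.076, adjusted p = 8.3e-05). In Mef2d it was at 215.0, 177.4 and 182.2 (-0.32, adjusted p = 0.0093). Both groups lay wholly below wild type, and the Mef2d libraries split, with replicate 1 highest.

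Gm6969 showed the opposite pattern in the same libraries. It was at 267.5, 286.8 and 305.4 FPKM in Mef2c, at 1.56, 128.0 and 144.0 in Mef2d, and between 0.294 and 2.06 in the other 12 libraries. As whole reads it had 1888, 1792 and 2080 in Mef2c, 12, 697 and 991 in Mef2d and 2 to 15 elsewhere, so Mef2d replicate 1 resembled the libraries outside these groups at both genes. Gm6969 held 33.7% to 36.3% of the reads of the pair in Mef2c, 17.7% and 19.1% in Mef2d replicates 2 and 3, and 0.215% in Mef2d replicate 1.

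Added together, the reads of Cox7a2l and Gm6969 came to 274.2 ± 4.39 RPM (reads scaled to library depth) in wild type and 277.6 ± 8.89 in Mef2c (SD, n = 3), with overlapping libraries. In Mef2d the sum was 250.9 ± 6.35, in Dyrk1 246.8 ± 20.4, in HDAC1 246.6 ± 6.96 and in HDAC2 232.7 ± 15.7. With the summed reads in place of Cox7a2l, the Mef2c difference was 0.02 (adjusted p = 0.877) and the Mef2d difference -0.13 (adjusted p = 0.158), whereas the HDAC2 difference stayed at -0.24 (adjusted p = 0.0145). Counted with the reads placed on Gm6969, Cox7a2l passed in neither Mef2c nor Mef2d. This fit was added after the values of both genes had been seen. As background, inbred mouse strains are known to carry a shorter or a longer in-frame form of Cox7a2l, and the reference strain C57BL/6 carries the shorter. The strain of these mice around Cox7a2l is not given in the sources used here, and the part of such a difference was not tested.

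**Figure D4:**
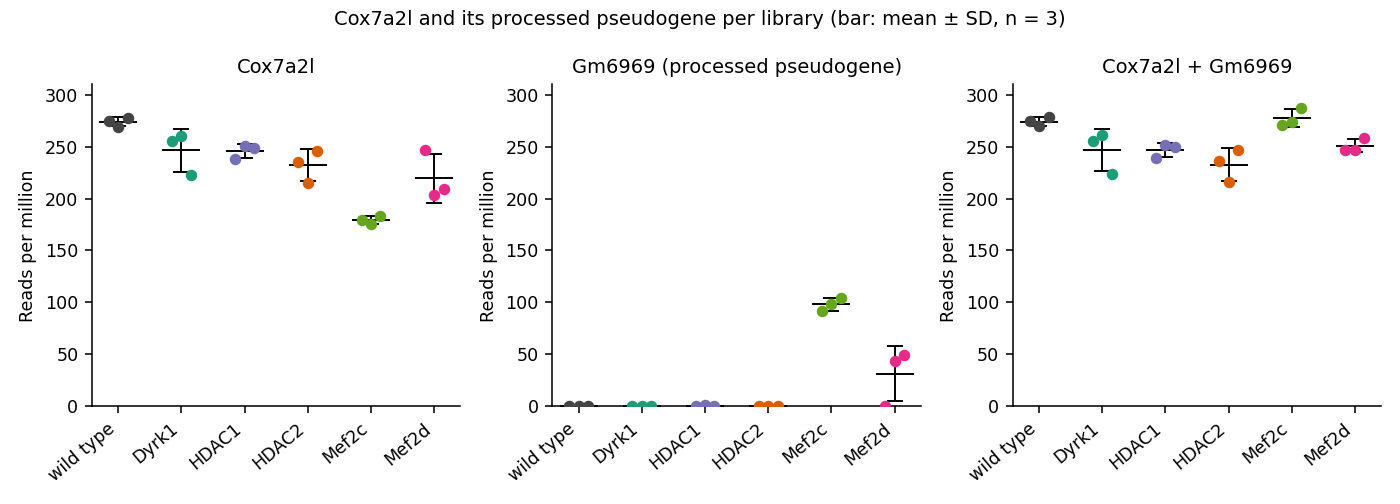
RPM (reads scaled to library depth) of Cox7a2l, of its processed pseudogene Gm6969 and of the pair summed, per library in the 6 groups (points, libraries; bars, mean ± SD, n = 3). Gm6969 is near 0 outside Mef2c and Mef2d replicates 2 and 3, and the summed Mef2c libraries overlap wild type (277.6 and 274.2 on average).

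The 12 tested mitochondrial genes all lay below wild type in Dyrk1 and HDAC1, 10 of 12 lay below it in HDAC2 and 2 of 12 in Mef2d, and all 12 lay above it in Mef2c. Against wild type, limma called 0 of the 12 tested in Dyrk1 (2 at an unadjusted p under 0.05), HDAC1 (3), HDAC2 (3) and Mef2c (2), and 1 of 12, mt-Co3, in Mef2d. Their median difference was -0.13 in Dyrk1, -0.21 in HDAC1, -0.18 in HDAC2, 0.28 in Mef2c and 0.13 in Mef2d. With each library left out in turn, the Dyrk1 median ran from -0.30 (without Dyrk1 replicate 3) to -0.03 (without wild-type replicate 1) and the HDAC1 median from -0.29 (HDAC1 replicate 1) to -0.12 (wild-type replicate 1). The HDAC2 median ran from -0.26 (wild-type replicate 2) to -0.08 (wild-type replicate 1). The Mef2c median ran from 0.20 (Mef2c replicate 2) to 0.42 (Mef2c replicate 1), and the Mef2d median from -0.02 (Mef2d replicate 2) to 0.24 (wild-type replicate 1). For the 7 above 100 FPKM alone, the median was -0.13 in Dyrk1, -0.19 in HDAC1 and -0.07 in HDAC2. It was 0.25 in Mef2c and 0.04 in Mef2d, where the median over all genes was also 0.04. The other 5 tested have near-identical annotated copies, described below, so the medians of all 12 rest in part on uncertain levels. In Mef2c 85 of 90 nuclear differences were below 0. The mitochondrial F test called mt-Co3 (adjusted p = 8.9e-04), mt-Nd2 (0.0144) and mt-Nd4 (0.0491), 3 of 12 against the 38.6% of all genes given above. Between HDAC2 and HDAC1 limma called 0 of 12 (0 at an unadjusted p under 0.05), and between Mef2d and Mef2c 0 of 12 (2 at that level).

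Of the 7 mitochondrial genes above 100 FPKM, all 7 had their highest mean in the Mef2c group, against 16.19% of all genes. Members are not replicates, so the 7 are not separate observations. mt-Nd4, a complex I membrane subunit, was at 924.2, 755.1 and 817.0 FPKM in wild type and at 985.2, 1149 and 1016 in Mef2c, without overlap (log2 difference 0.34, adjusted p = 0.106). mt-Nd6, the only protein gene on the opposite strand of mitochondrial DNA, was at 1297, 985.6 and 1133 in wild type and 1315, 1716 and 1446 in Mef2c (0.39, adjusted p = 0.131). mt-Cytb, the mitochondrial subunit of complex III, was at 3033, 2706 and 2687 and at 3090, 3346 and 3546 (0.24, adjusted p = 0.151). These 3, of the 12 tested, were the only ones without overlap between the groups, and none passed the test. Of all genes, 23.5% had every Mef2c library above every wild-type one, so this count was near the background. mt-Co1, the catalytic subunit of complex IV, had the highest listed FPKM of all members, 5533 in wild type and 6095 in Mef2c (0.14). mt-Nd1 was at 2941 and 3273 (0.15). mt-Nd2 was at 1525 and 1815 (0.25) and mt-Nd5 at 1182 and 1511 (0.35).

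The other 6 mitochondrial genes, mt-Co2, mt-Atp8, mt-Atp6, mt-Co3, mt-Nd3 and mt-Nd4l, lie next to each other in mitochondrial DNA, and their levels were far below those of the 7. In wild type mt-Co2 was at 22.9, mt-Atp6 at 17.5, mt-Co3 at 17.0, mt-Nd3 at 3.44 and mt-Nd4l at 3.35 FPKM, and mt-Atp8 had 0 to 3 reads in any library. The 5 tested have near-identical annotated copies on chromosome 1, covering 98.99% to 99.87% of their sequence. Gm28437, the copy of mt-Co3, was itself at 16.5 FPKM in wild type, Gm28661 (mt-Co2) at 23.7, Gm10925 (mt-Atp6) at 31.4, Gm28438 (mt-Nd3) at 22.6 and Gm10222 (mt-Nd4l) at 2.74. Reads of these genes and their copies cannot be told apart over most of their length, as the identical mt-Co3 and Gm28437 stretches above show, so the levels of these 5 are uncertain. How reads that map to several places were treated is not given in the sources used here. Among annotated transcripts, the only ones searched, mt-Nd1, mt-Nd2, mt-Nd5, mt-Nd6, mt-Cytb and mt-Atp8 had no such match. An unannotated copy would be missed. mt-Atp8 lies between mt-Co2 and mt-Atp6, which both have chromosome 1 copies, so its level is uncertain too. mt-Nd4 (63.57% of its length) and mt-Co1 (31.26%) had part copies on chromosome 1. mt-Co1 also matched Gm13340 on chromosome 2, 97.61% identical over all 1545 bases and at 2.26 FPKM in wild type.

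mt-Co3 was the mitochondrial gene called in Mef2d. It was at 17.9, 15.6 and 17.4 FPKM in wild type and 19.8, 31.7 and 24.3 in Mef2d, a log2 difference of 0.53 (SE 0.155, adjusted p = 0.0270). The call was lost in 7 of 18 alternatives, namely with no filter, with length and GC trends removed, as 2 groups alone, and without wild-type replicate 2 or 3 or Mef2d replicate 2 or 3. The groups did not overlap, as for 25.9% of all genes in this direction, and Mef2d replicate 2 was highest. Its copy Gm28437 moved with it, to 24.6 FPKM in Mef2d (0.54, adjusted p = 0.040). The background for genes called higher in Mef2d was the 13.9% given above. Among the genes without an annotated copy, Mef2d differences were -0.23 for mt-Nd1, -0.13 for mt-Nd2, 0.15 for mt-Nd5, 0.18 for mt-Nd6 and 0.04 for mt-Cytb, and none passed.

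**Figure D5:**
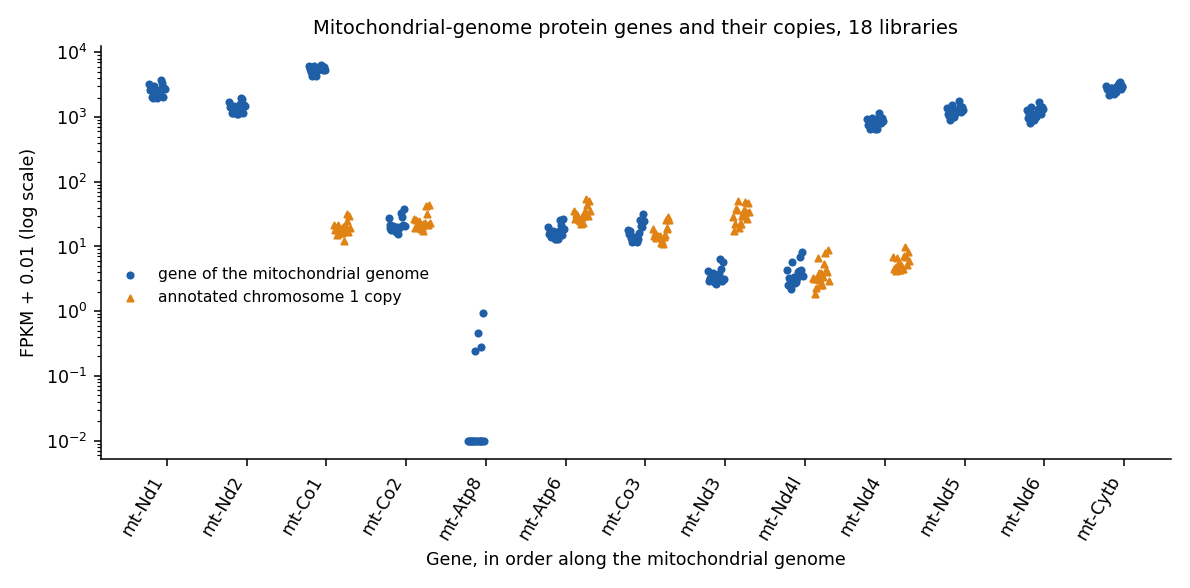
FPKM (log axis, 0.01 added) of the 13 mitochondrially encoded genes (circles) and of their annotated chromosome 1 copies (triangles) in the 18 libraries, each point a library, in order along mitochondrial DNA. The 6 adjacent genes from mt-Co2 to mt-Nd4l lie far below the other 7, and 5 of them lie near or below the level of their copy.

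Genes that serve the same machinery outside the name rule were read from fixed lists. Of 76 mitochondrial ribosomal protein genes, which translate the mitochondrial members, 14 fell in HDAC2, 12 in Mef2d, 6 in Dyrk1, 3 in HDAC1 and 1 in Mef2c, where 1 also rose. Of all genes, 9.41%, 7.95%, 6.19%, 2.32% and 6.06% fell in those groups, so the Dyrk1 and HDAC1 counts were near this background and the Mef2c count below it. Examples are Mrpl12 in HDAC2 (19.98 to 13.45 FPKM; log2 difference -0.52) and Mrpl9 in Mef2d (51.4 to 35.6; -0.51). Of 34 genes for import, cristae and protein quality, 13 fell in HDAC2 (9.41% of all genes) and 9 in Mef2d (7.95%), among them the chaperonin partner Hspe1 in HDAC2 (183 to 131) and the import subunits Timm50 (33.1 to 23.0) and Timm23 (68.0 to 48.4) in Mef2d. Of 27 genes for copying and reading mitochondrial DNA, 5 fell in Dyrk1, including the topoisomerase Top1mt (5.53 to 3.27), 4 fell in Mef2d, and 1 in each of HDAC1, HDAC2 and Mef2c, the last 3 counts being near or below the background.

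Assembly factors outside the name rule moved in both directions. Of 39, 3 rose and 2 fell in HDAC2, 1 rose and 2 fell in Mef2c, 1 rose and 3 fell in Mef2d, 1 fell in Dyrk1 and 1 rose in HDAC1. Of all genes, 16.1% rose and 9.41% fell in HDAC2, 12.9% and 6.06% in Mef2c and 13.9% and 7.95% in Mef2d. In Dyrk1 11.1% rose and 6.19% fell, and in HDAC1 10.2% and 2.32%. The counts of the assembly factors were thus near or below those of all genes. Tmem126b, a complex I assembly factor, rose from 3.92 FPKM to 6.03 in HDAC2, 6.48 in Mef2c and 6.34 in Mef2d, while Lyrm7, which helps insert Uqcrfs1 into complex III, fell from 1.52 to 0.469 in Mef2c and 0.573 in Mef2d. The complex III factor Uqcc2 also fell in both (44.3 to 34.4 and 34.8 FPKM), another, Uqcc3, fell in Dyrk1 (45.2 to 34.2) and Cmc2 in HDAC2 (6.96 to 4.62), while the copper chaperone Cox17 rose in HDAC2 (0.968 to 1.74) and Ttc19 in HDAC1 (4.56 to 5.45). Of 16 transcription factors and coactivators known to regulate respiration, 6 rose in Dyrk1, 4 in HDAC1, 5 in HDAC2, 3 in Mef2c and 3 in Mef2d, and 1 fell in HDAC2. Of all genes, 11.1%, 10.2%, 16.1%, 12.9% and 13.9% rose in those groups, and the Mef2c and Mef2d counts were near this background. Esrra, a nuclear receptor that drives OXPHOS genes, rose from 17.3 to 22.9 FPKM in HDAC2 (0.38, adjusted p = 0.0029), and Gabpb2, a GABP subunit, from 22.8 to 33.8 in Dyrk1 (0.54, adjusted p = 0.0016). Of 25 genes of the tricarboxylic acid cycle and pyruvate dehydrogenase, 6 fell and 3 rose in HDAC2 and 7 fell and 2 rose in Mef2d. The falls were above the shares of all genes that fell (9.41% and 7.95%). The rises were below the shares that rose (16.1% and 13.9%). Genes outside the mitochondrion also fell. Of 83 cytosolic ribosomal protein genes 41 fell in HDAC2 (median -0.33), 30 in Dyrk1 (-0.29), 18 in Mef2d, 15 in Mef2c and 9 in HDAC1. Of all genes, 9.41%, 6.19%, 7.95%, 6.06% and 2.32% fell in those groups. The Dyrk1 median of the ribosomal list was lower than the nuclear OXPHOS median (-0.16). These lists were not tested against each other, and ribosomal protein genes have many processed copies whose reads were not examined.

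Promoters were matched for 75 of the 95 nuclear members (80 promoters, each 250 bases before to 50 after the start). The NRF1 motif (GCGCA, then any base, then GCGC), searched on both strands, was in 25% of them, against 10.3% of the promoters of tested genes and 4.6% of all promoters. The ETS motif CCGGAAG was in 22.5%, against 18.9% and 8.86%, and the YY1 motif AAGATGGCG in 10%, against 3.24% and 1.4%. Among the 35 promoters of members that fell in HDAC2 the shares were 28.6%, 22.9% and 8.57%. Sdhd carried both an NRF1 and an ETS match and Ndufs6 an NRF1 match, as printed above. A match says only that these letters stand in the window.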

How the data were processed

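RNA of 18 sorted Treg libraries (6 groups of 3, labelled as independent biological replicates) was analysed from 1 table of values per gene and library. STAR, HTSeq and the mm10 build are named, without roles or versions, in the submitters' processing notes. Neither labels nor header name the unit. What the authors deposited was read as FPKM: depths of 15918037 to 24092535 reads per library, taken from the smallest steps of value times length, gave whole reads (within 0.001) for all 13 mitochondrial members, but with annotated lengths for 9 of the 95 nuclear ones. Cox7a2l gave whole reads at 1147 bases. Treatment of multi-mapping reads and strand is not given in the sources used here. Gene symbols, types, lengths and transcripts came from GENCODE M21.

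Of 35275 identifiers, 12223 reached 1 FPKM in at least 3 libraries. Log2(FPKM + 1) was fitted over all 18 libraries with limma 3.58.1 (R 4.3.3, 12 residual degrees of freedom, variance trend), with Benjamini-Hochberg adjustment over all genes tested and a threshold of 0.05. A fold on this scale understates low genes. The fit was tested on simulated data. Copies were found among annotated transcripts with BLAST+ 2.17.0 (at least 97% identity over 100 bases), promoters and motifs with Python 3.11.15.

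Members and lists were chosen with earlier results of these data known. Named were the 13 mitochondrial genes, isoform families, up to 4 called members per class and comparison by size of change (5 FPKM or more in the higher group), the most abundant member where none passed, and members against the main direction. Cox7a2l in HDAC2, Gm6969 and the promoter examples were chosen after their values were seen. Some results the rule would name are not reported here.

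Alternatives covered pseudocounts of 0.1 and 5, filters, scalings, length and GC, the replicate block, B cell-rich libraries, each 2 groups alone and each library left out. Errors given are between libraries. Replicate numbers were checked by correlating deviations from group means. Every same-numbered pair was over 0.1 between wild type and HDAC2 (0.16 to 0.33), HDAC1 and HDAC2 (0.13 to 0.43) and Mef2c and Mef2d (0.31 to 0.40), so only those comparisons were taken as paired.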

Additional observations from a re-analysis of the deposited data

How the results depend on the processing

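Counts below are of nuclear members called. With no filter they were 1 in Dyrk1, 4 in HDAC1 and 4 in Mef2c. With median-of-ratios scaling they were 8 in Dyrk1, 16 in HDAC1, 22 in Mef2c, 27 in Mef2d, 1 in Mef2d against Mef2c and 32 by the F test. Scaled to equal totals (TPM) they were 0 in Dyrk1, 1 in HDAC1, 8 in Mef2d and 1 in Mef2d against Mef2c, and to equal totals outside mitochondrial DNA 0, 1, 9 and 1, with 5 in Mef2c. The Mef2d nuclear median was -0.13 under both. With length and GC trends removed they were 16 in HDAC1, 59 in HDAC2, 1 in Mef2d against Mef2c and 36 by the F test, and the mitochondrial medians were -0.38 in HDAC1 and -0.33 in HDAC2. Without a variance trend HDAC1 had 3. Fitted as 2 groups alone, Dyrk1 had 0, HDAC1 1 and Mef2c 3. Without the B cell-rich libraries Dyrk1 had 6, Mef2c 2 and Mef2d 7. The cause of these shifts was not tested.

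Mitochondrial members called were 0 in Mef2d with no filter, with length and GC trends removed or as 2 groups alone, 2 in HDAC2 as 2 groups alone, and 1 by the F test with no filter. Without the B cell-rich libraries 1 was called in Dyrk1, 2 in HDAC2, 1 in Mef2c and 6 by the F test.

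Same-numbered libraries deviated together in 18 of 45 pairs (correlation over 0.1, range -0.453 to 0.464), and in every pair for 3 of 15 pairs of groups. In the paired comparisons the replicate block gave 32 nuclear calls in HDAC2 against wild type and 0 in HDAC2 against HDAC1 and in Mef2d against Mef2c. In the others, where libraries share only a number, it gave 1 in Dyrk1, 4 in Mef2c, 5 in HDAC1 and 14 in Mef2d.

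Leaving out each library in turn gave 12 to 35 nuclear calls in HDAC2, 5 to 13 in Mef2d, 2 to 12 in Mef2c, 0 to 9 in HDAC1, 0 to 11 in Dyrk1, 0 to 1 in Mef2d against Mef2c (1 without Mef2c replicate 3) and 10 (wild-type replicate 3) to 39 (Dyrk1 replicate 3) by the F test. Mitochondrial calls ran from 0 to 1 in Dyrk1 (1 without Dyrk1 replicate 3), 0 to 1 in Mef2d (0 without wild-type replicate 2 or 3 or Mef2d replicate 2 or 3) and 1 to 7 by the F test (7 without Dyrk1 replicate 3, 5 without Mef2c replicate 1, 1 without Mef2c replicate 2 or 3). The nuclear medians against wild type stayed below 0 in every such run, from -0.23 to -0.03 in Dyrk1 and from -0.36 to -0.27 in HDAC2.

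In Mef2d the log2 difference of mt-Cytb was -0.0020 and that of mt-Co1 -0.042 under median-of-ratios scaling. Leaving out each library, mt-Co1 ran from -0.067 (wild-type replicate 3) to 0.079, mt-Nd3 from -0.128 to 0.265, mt-Co2 from -0.117 to 0.304 and mt-Atp6 from -0.065 to 0.326, the last 3 lowest without Mef2d replicate 2, where mt-Co1 was -0.042. Cox7a2l in Mef2c was at 0.017 with the reads of Gm6969 added, an alternative chosen after seeing the data. Of 53 calls of named members, mt-Co3 in Mef2d among them, under 18 alternatives each, 674 of 954 passed again, 280 did not, and 0 changed direction. The 11 calls that passed in all 18 included Ndufs6, Ndufv2, Uqcr11 and Uqcrfs1 in HDAC2, Sdhd and Cox7a2l in Mef2c and Mef2d, and Uqcrc1 and Uqcrc2 in Mef2d, the Cox7a2l ones before Gm6969 was added. With 3 libraries a group, small differences may go uncalled, and mt-Nd3, mt-Nd4l and mt-Atp8 rest on few reads.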
